A study of Arabidopsis thaliana with 4 samples.

Results

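The 200 brightest transcripts of nuclear genes in young wild type seedlings of Arabidopsis thaliana, among those whose probe set carries exactly 1 gene symbol, are described here, by the functions they serve and by how steady they were over 4 arrays. The members were taken from 22746 probe sets of the Affymetrix ATH1 array. Each is a group of short oligonucleotides that reads transcripts of 1 gene or, for some, of several. Of these, 13421 carried exactly 1 gene symbol and belonged to a nuclear gene, and the members were selected on their measured signal: they are the 200 of these with the highest mean over the 2 wild type arrays. The members' wild type mean signals ran from 733.2 to 3946 arbitrary units, with a median of 1030.0. The signal of a probe set depends on its oligonucleotides as well as on the transcript, so the order of the members is an order of brightness and not of abundance between genes. In all, 649 probe sets were at least as bright as the dimmest member. Beside the members these were 35 of plastid or mitochondrial genes, 29 with several gene symbols and 385 that the gene table does not list, so the members are 30.8% of the equally bright probe sets. No gene had more than 1 probe set among the members.

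The RNA was total RNA of whole seedlings at developmental stage 1.02, when the first true leaves are out, grown at 20 °C in 80% humidity under days of 16 h light. There were 2 arrays of the Col-0 wild type and 2 of a line in the same background whose label calls it a complete knockout of CDB1. The labels give neither the allele nor the locus of CDB1, no annotation used here pairs that name with a gene (0 matches), and so its level could not be checked. Nothing says that the 2 replicates of a group were separate cultures, so p-values reflect only how far these arrays differ, which may be technical. Values are deposited MAS5 signals, scaled by the authors to a like level on every array, and the number of arrays limits their precision. Of the markers listed for tissues of the seedling, 2 of 12 for green tissue, 3 of 8 for root and 1 of 4 for dividing cells had a named probe set, and all 6 were above the brightness floor of 19.5. Green tissue was represented by RCA and LHCB4.1, and root by PYK10, all 3 of which are members, and by the dimmer EXPA7 and EXPA18. None of the 6 seed storage and 6 flower and pollen markers had a named probe set, so their absence from the samples could not be checked.

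A seedling of this age has largely used up its seed reserves and lives from its own photosynthesis. Nuclear genes supply its chloroplasts with the light-harvesting proteins, most of the small photosystem subunits and the enzymes that fix carbon, while the root of the young plant is rich in beta-glucosidases and lectins that are stored for defence. Transcripts of basic metabolism and protein turnover, often called housekeeping transcripts, are bright in most plant tissues. Of the 200 members, 60 had a gene name or a named synonym. Of these, 54 fell into 13 function classes and 6 into none. The other 140 had only a locus number, with wild type means from 735.6 to 3566 and a median of 959, and no function is given for them here. The class counts below therefore describe the 60 named members and not all 200. Which function is largest among all 200 is not known. None of the 13 classes covers ribosomal proteins or translation.

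Among the 20 highest-ranked members, 9 had a name. The brightest was ECS1, a cell wall protein found through its link to resistance against Xanthomonas, at 4549.6 and 3341.5 in the wild type pair of arrays and 3099.5 and 4225.5 in the knockout pair. PRXR1, a class III peroxidase, which are secreted enzymes that use hydrogen peroxide, read 3967 and 3290.1 for wild type and 2874 and 3378 for the knockout. PYK10, the main beta-glucosidase of ER bodies, the defence compartments of root and seedling epidermis, read 2967 and 2599 for wild type and 2544.5 and 2859 for the knockout. In all 3 genes 1 knockout array lay between the wild type arrays and the other below them, and wild type replicate 1 was the highest array.

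Enzymes of sugar metabolism and photosynthesis followed. GAPC2, a cytosolic glyceraldehyde-3-phosphate dehydrogenase of glycolysis, was at 2780.0 and 2522 in the wild type pair of arrays and 2364 and 2714 in the knockout pair. RCA, Rubisco activase, which frees Rubisco from bound inhibitors, was at 2672 and 2292 for wild type and 2429.8 and 2685 for the knockout. MT1C, a metallothionein, a small cysteine-rich protein that binds metals, was at 1957 and 2314 for wild type and 2274 and 1903 for the knockout. All 3 had overlapping groups.

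The last named genes of the 20 were SAMDC, which makes the aminopropyl donor of polyamines, APA1, a vacuolar aspartic protease, and TPI, triose phosphate isomerase. SAMDC gave 2273 and 1908 in the wild type pair of arrays and 1768 and 1967.5 in the knockout pair, and APA1 gave 2015 and 1871 in the wild type pair of arrays and 1868 and 2252 in the knockout pair. TPI gave 1989 and 1741 in the wild type pair of arrays and 1477 and 1679.6 in the knockout pair, and it was the only named gene among the 20 in which both knockout arrays were below both wild type arrays. Its log2 fold change, knockout minus wild type, of -0.24 did not pass the test (limma adjusted p = 0.998).

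The 11 unnamed members of the top 20 had array signals between 1783 and 3835. AT2G25510 (3677 and 3455 for wild type and 3169.5 and 3705 for the knockout) and AT3G22240 (3835 and 3156 for wild type and 2831 and 3626 for the knockout) stood next to the top, at ranks 3 and 4. AT4G23670 (2395.5 and 2074 for wild type and 1922 and 1828 for the knockout) and AT3G48140 (2164 and 2018.5 for wild type and 1899.8 and 1898 for the knockout) were the other members of the 20 whose knockout arrays were both below wild type. The remaining 7 were AT2G26500, AT4G16190, AT1G78040, AT2G45180, AT1G23130, AT2G41090 and AT5G38980, all with overlapping groups. So 3 of the 20 had groups that did not overlap, all 3 lower in the knockout, against 31.9% of all 15924 tested probe sets with groups apart in either direction. The highest array was 1.05 to 1.47 times the lowest over the 20, and wild type replicate 1 was the highest array for 12 of them.

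**Figure D1:**
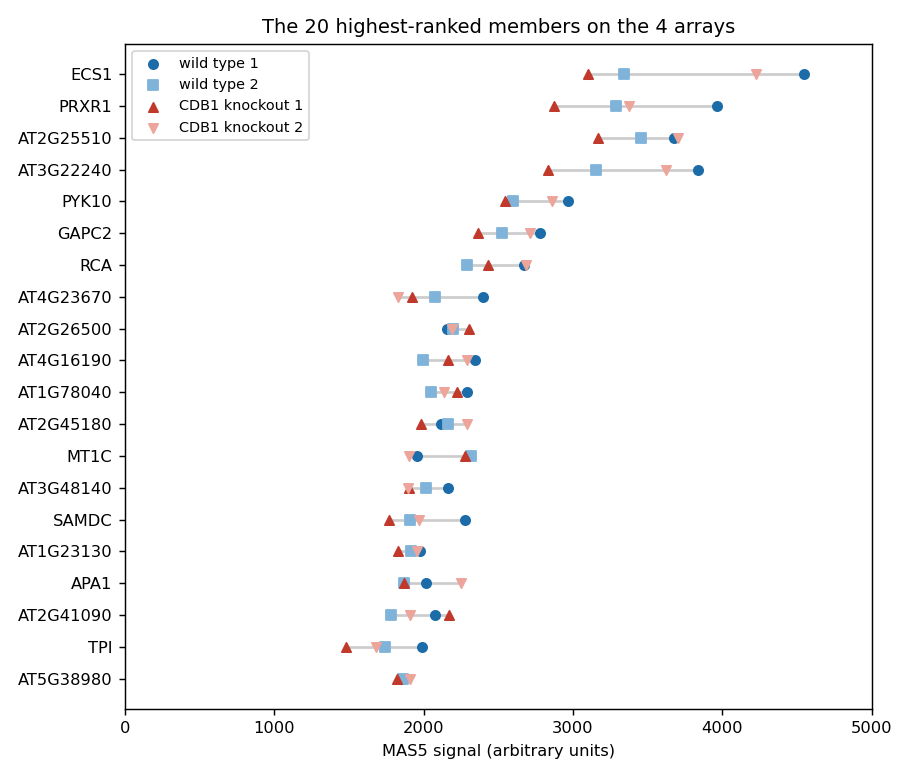
MAS5 signals (x axis, arbitrary units) of the 20 highest-ranked members, 1 point for each of the 4 arrays, with a grey line from the lowest to the highest array. The arrays of the 2 groups are interleaved for most members, and TPI, AT4G23670 and AT3G48140 are the 3 whose knockout points both lie left of the wild type points.

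Among the 60 named members photosynthesis was the largest function: 8 serve the light reactions, 4 the Calvin cycle and photorespiration and 1 the making of chlorophyll. Their signals lay on the whole somewhat above wild type in the knockout, with a median log2 fold change of 0.17 over the 13, or 12 of 13 above 0, but none passed the test. Both knockout arrays were above both wild type arrays for 9 of the 13 and below for 0. Over all tested probe sets 46% had a log2 fold change above 0, and 15% had both knockout arrays above. At an unadjusted limma p of 0.05, 2 of the 13 passed, LHCB4.1 and HPR, against 5.24% of all tested probe sets. The classes were drawn up with the members in view, so these counts are a description with no test of the list. In RNA from whole seedlings, another share of green cells and another amount of RNA per green cell cannot be told apart.

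The antenna and photosystem members were small subunits and light-harvesting proteins. LHCB4.1 and LHCB4.2 encode CP29, a minor antenna protein of photosystem II. LHCB4.1 read 1518 and 1568 in the wild type pair of arrays and 2064 and 1808 in the knockout pair, with both knockout arrays well above wild type (log2 fold change 0.32, 95% confidence interval 0.04 to 0.61, limma adjusted p = 0.84). LHCB4.2 read 785 and 731 for wild type and 908 and 789 for the knockout, where knockout replicate 2 was close to wild type replicate 1. The probe sets of such close relatives may pick up each other's transcripts, which was not tested.

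Of the photosystem II subunits, PSBY read 913 and 968 for wild type and 1096 and 1018 for the knockout, both knockout arrays above. PSBW read 1628 and 1522 for wild type and 1467 and 1570.5 for the knockout, and it was the single member of the 13 with a log2 fold change below 0 (-0.05). Of the photosystem I subunits, PSAE-1, on the stromal side where ferredoxin docks, read 1119 and 1260.3 for wild type and 1414 and 1217 for the knockout, with overlap. PSAN, on the lumenal side, read 755 and 733 for wild type and 919 and 762 for the knockout, with knockout replicate 2 barely above wild type.

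The other light-reaction members act in the thylakoid membrane. AT4G01150, whose synonym is CURT1A, bends the membrane at the edges of grana, and it read 1803 and 1698 in the wild type pair of arrays and 2048 and 1894 in the knockout pair. ATPC1, the gamma subunit of the chloroplast ATP synthase, read 1834 and 1520.0 in the wild type pair of arrays and 1805 and 1877 in the knockout pair. The knockout arrays of AT4G01150 were both above wild type, and those of ATPC1 were not.

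In carbon fixation, PRK, phosphoribulokinase, which makes the acceptor of carbon dioxide, was at 1543 and 1305 in the wild type pair of arrays and 1698 and 1642 in the knockout pair. SBPASE, sedoheptulose-bisphosphatase, a control point in the regeneration of that acceptor, was at 1223 and 1167 for wild type and 1473 and 1299 for the knockout. HPR, the peroxisomal hydroxypyruvate reductase of photorespiration, was at 1272 and 1269 for wild type and 1566 and 1588 for the knockout, where the replicates of each group were nearly equal (log2 fold change 0.31, 95% confidence interval 0.04 to 0.58, limma adjusted p = 0.84). All 3 had both knockout arrays above wild type, while RCA, given above, did not. AT1G74470, geranylgeranyl reductase, which makes the phytol tail of chlorophyll, read 1000.4 and 865 for wild type and 1069.9 and 1203 for the knockout, again with the knockout above (log2 fold change 0.28, limma adjusted p = 0.984).

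Most dimmer genes of the light-reaction and pigment classes, which the ranking did not pick, also had log2 fold changes above 0. All 4 tested light-reaction genes outside the members were above 0, with a median of 0.15. So were 7 of 8 tested pigment genes, with a median of 0.20, and 0 of the 12 passed the test. Over all tested probe sets 46% were above 0. The groups overlapped for AT4G38100, ATPC2, AT1G52220, PORB, CHLM and HEME1, and both knockout arrays were below for HEMA2. Both were above only for LHCB4.3, CHLI2, HEME2, LYC and HEMB1. The class rules were written after the members' names were known. The dimmer genes thus include close relatives of members, such as LHCB4.3 and ATPC2, and are no independent check. All 4 genes of the Calvin cycle class on the array were members, so that class had no dimmer gene to look at. With 1 array left out in turn, 11 or 12 of the 13 members stayed above 0. The median of the light-reaction members moved from 0.09 without knockout replicate 1 to 0.24 without knockout replicate 2, and that of the Calvin cycle members reached its lowest value, 0.14, without wild type replicate 2. Knockout replicate 1 was the highest array for 8 of the 13, and wild type replicate 2 was the lowest for 9.

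**Figure D2:**
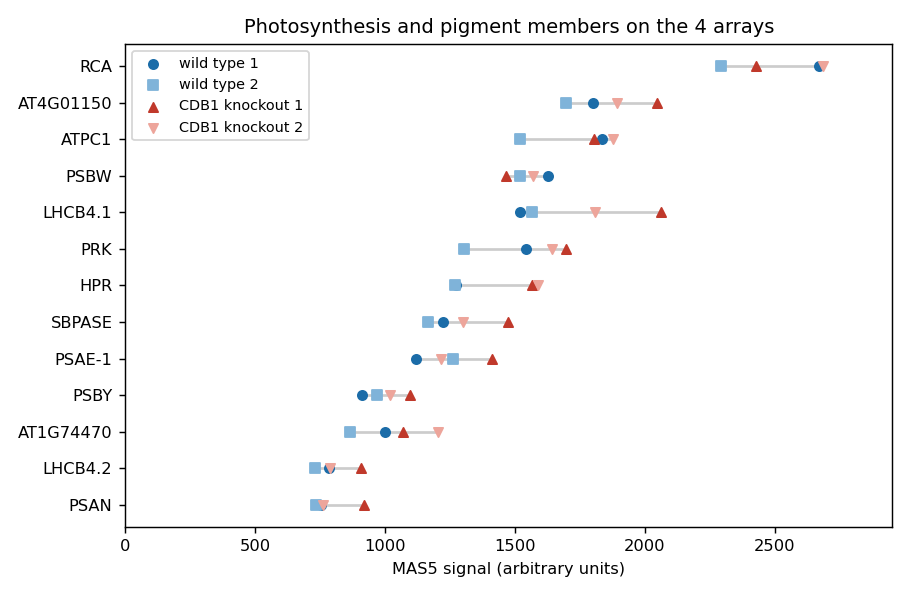
MAS5 signals (x axis, arbitrary units) of the 13 photosynthesis and pigment members, 1 point per array, with a grey line from the lowest to the highest array. The knockout points lie to the right of both wild type points for 9 members, and wild type replicate 2 is the leftmost point for 9.

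Central carbon metabolism held 4 named members, 3 of them with log2 fold changes below 0, and none passed the test. Beside GAPC2 and TPI these were cICDH, the cytosolic NADP-dependent isocitrate dehydrogenase, and ALDH11A3, a glyceraldehyde-3-phosphate dehydrogenase that yields NADPH without phosphorylation. cICDH read 2037 and 1380.3 in the wild type pair of arrays and 1615 and 1497.5 in the knockout pair, so its wild type replicates were farther apart than the groups. ALDH11A3 read 706 and 805 for wild type and 836 and 798 for the knockout, with overlap and the knockout mean above. The class median was -0.09, and it ranged from -0.23 to 0.01 with 1 array left out.

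Mitochondria were represented by CYTC-1, cytochrome c, the mobile electron carrier of respiration, and by MPPBETA, a subunit of the peptidase that removes import signals and sits in complex III in plants. CYTC-1 read 1011 and 1145 for wild type and 1063.5 and 879 for the knockout, and MPPBETA read 835 and 753 for wild type and 682 and 823 for the knockout. Both had overlapping groups. Phenylpropanoid metabolism, which makes lignin and sinapate esters, had 2 members. ALDH2C4, the aldehyde dehydrogenase that forms ferulate and sinapate, read 1148 and 996 for wild type and 934 and 1234 for the knockout, and HCT, the acyltransferase that commits the pathway to lignin, read 851 and 716 for wild type and 729 and 757 for the knockout. THIC, which makes the pyrimidine part of thiamine, was the last member in rank, at 835 and 631 for wild type and 731 and 751 for the knockout. All of these overlapped between groups.

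The redox and metal class had 5 members, and 0 of them passed the test. GRXC2, a glutaredoxin that reduces disulfides with glutathione, was the least steady, at 959 and 1103 in the wild type pair of arrays and 1408 and 970.3 in the knockout pair, since knockout replicate 1 stood far above the other 3 arrays. MSRB5, a methionine sulfoxide reductase that repairs oxidised methionine, showed the same array standing out, at 1332 and 1458 for wild type and 1765 and 1350.5 for the knockout. ATHM2, an m-type thioredoxin of the chloroplast, was at 1037 and 1014 for wild type and 1077 and 1197 for the knockout, and it was the only 1 of the 5 with both knockout arrays above wild type. The class median of 0.14 was below 0, at -0.08, when knockout replicate 1 was left out.

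Protein turnover had 6 members, which lay on both sides of 0, and none passed the test. UBC28, a ubiquitin-conjugating enzyme, read 1820.4 and 1847 in the wild type pair of arrays and 1729 and 1634 in the knockout pair, and it was the only 1 of the 6 with groups apart, the knockout being lower. GAMMA-VPE, a vacuolar processing enzyme that cuts after asparagine, read 1610.5 and 1338 for wild type and 1313.5 and 1398 for the knockout. ATG8F, which is anchored to the autophagosome membrane, read 847.5 and 984 for wild type and 1031 and 892 for the knockout. SCPL49, of the serine carboxypeptidase-like family, and BRH1, a brassinosteroid-responsive RING-finger gene, were among the dimmest members. SCPL49 read 861 and 707 for wild type and 904 and 814 for the knockout, and BRH1 read 757 and 727 for wild type and 522 and 752 for the knockout, where only knockout replicate 1 was low. The median of the 6 was -0.02.

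Among the named members the class of ER body and defence proteins was the largest single class, with 9 members. The class joins several protein families, and its size depends on rules written after the members' names were known. It lay close to 0: the median log2 fold change was -0.04, 4 were above 0 and 5 below, and none passed the test. PYK10 has been given above. JAL34 and JAL33 are jacalin-type lectins that form complexes with PYK10 when cells are broken, and their genes are neighbours on chromosome 3. JAL34 read 1244.5 and 1142 in the wild type pair of arrays and 1358 and 1357 in the knockout pair, both knockout arrays above, while JAL33 read 1050.4 and 1179 in the wild type pair of arrays and 1209.5 and 1067 in the knockout pair, with overlap.

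Among the other 6, LCR68 and LCR69 encode small cysteine-rich proteins of the defensin family. LCR68 read 1147 and 1066 for wild type and 1025 and 868 for the knockout, both knockout arrays below, and LCR69 read 1052 and 1047 for wild type and 1102 and 1061 for the knockout, an almost level set of 4 values. BGLU28 and BGLU44 are further beta-glucosidases. BGLU28 read 1154 and 1036 for wild type and 986 and 959 for the knockout, both knockout arrays below, and BGLU44 read 919.8 and 811.5 for wild type and 826 and 821 for the knockout. OSM34, an osmotin-like protein of the thaumatin family, read 832 and 683.5 for wild type and 775 and 789 for the knockout, with overlap. ECS1, the brightest of the class, had an SD over the 4 arrays of 0.264 on the log2 scale, and the class median ran from -0.14 without wild type replicate 2 to 0.05 without wild type replicate 1. On the whole array the class held 26 tested genes, of which 1 was called, PDF1.2b, which is not a member.

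Genes of the response to cold, drought and salt made up 6 members, and 1 of them passed the test. STZ, also called ZAT10, on chromosome 1, a zinc finger repressor of transcription that salt, cold and wounding induce, gave 1117 and 1194 in the wild type pair of arrays and 574 and 553 in the knockout pair. Both knockout arrays were far below both wild type arrays, and the gap was many times the difference between replicates. STZ is a member only through the wild type arrays, which are one side of this test. It ranked 72 by them and 319 by the knockout arrays, so the choice of members favours a fall. STZ was 2.02-fold lower in the knockout (log2 fold change -1.02, SE 0.13, 95% confidence interval -1.30 to -0.73, limma adjusted p = 0.0101). It lost the call when knockout replicate 2 was left out (limma adjusted p = 0.0557) and when dim probe sets were not filtered out (limma adjusted p = 0.148).

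The other 5 of the class had log2 fold changes between -0.13 and 0.09, and none passed the test. COR47 and AT1G54410, whose synonym is HIRD11, are dehydrins, hydrophilic proteins that accumulate as cells lose water. COR47 read 772 and 809.5 for wild type and 729 and 759 for the knockout, both knockout arrays slightly lower, and AT1G54410 read 1138 and 1461 for wild type and 1296 and 1079.9 for the knockout, with overlap. TIL, a temperature-induced lipocalin of the plasma membrane, read 1009.7 and 1059.7 for wild type and 946 and 937 for the knockout, both knockout arrays below. DI19, a drought-induced zinc finger protein, read 1706 and 1528.5 for wild type and 1879.5 and 1575 for the knockout, and SRC2, a cold-regulated C2-domain protein, read 1137 and 1179 for wild type and 1061 and 1162 for the knockout, both with overlap.

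Transport had 3 members. AT1G53210, whose synonym is NCL, a sodium and calcium exchanger-like protein, read 1510.1 and 1451 for wild type and 1438 and 1398 for the knockout, and its 4 values lay close together. SWEET11, which lets sucrose out of leaf cells for loading into the phloem, read 1151 and 901 for wild type and 944 and 1040.3 for the knockout. OEP16-3, of an outer membrane channel family, read 785 and 833 for wild type and 720.2 and 991 for the knockout. For the cytoskeleton there were TUA6, an alpha-tubulin, at 1122 and 849 for wild type and 1001 and 1044 for the knockout, and WLIM2b, a LIM-domain protein that bundles actin filaments, at 920.1 and 862 for wild type and 857 and 811 for the knockout. AT1G53210 and WLIM2b had both knockout arrays below wild type, by small amounts, and the other 3 overlapped.

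The 6 named members outside the classes were CCL, AILP1, CP5, TET8, ZW9 and RBP45B. CCL had the largest log2 fold change above 0 of any named member, with 1321.5 and 1389 in the wild type pair of arrays and 1807 and 1637 in the knockout pair (log2 fold change 0.34, limma adjusted p = 0.761). CP5 gave 982.5 and 871 for wild type and 1167 and 1088 for the knockout, both knockout arrays above. TET8, a tetraspanin of the membranes of extracellular vesicles, gave 866 and 915 for wild type and 630.0 and 792 for the knockout, both knockout arrays below (log2 fold change -0.33, limma adjusted p = 0.933). RBP45B, an RNA-binding protein, gave 765 and 714 for wild type and 772.5 and 795.5 for the knockout, AILP1 gave 1188 and 1162 for wild type and 1143 and 1319 for the knockout, and ZW9 gave 698 and 833 for wild type and 809.6 and 824 for the knockout. None of the 6 passed the test.

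**Figure D3:**
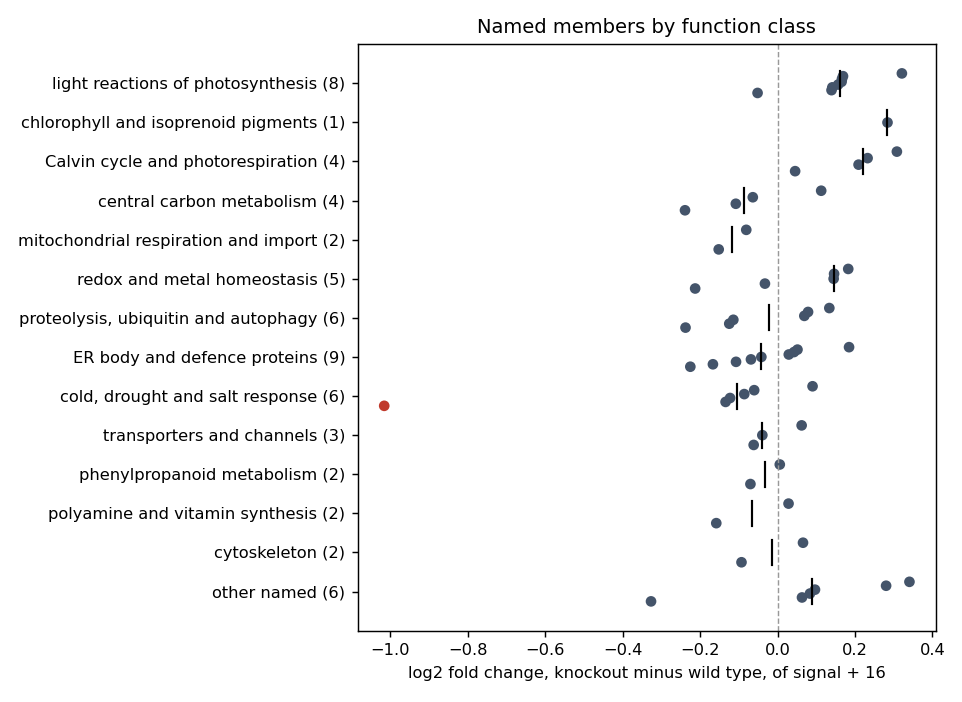
Log2 fold change (x axis, knockout minus wild type, of signal + 16) of the 60 named members by function class, with the number of members in brackets and the class median as a black bar. The red point, STZ, is the only named member past an adjusted p of 0.05, and the 3 photosynthesis and pigment classes at the top lie mostly right of 0.

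Over all 200 members the knockout and the wild type were close. The median log2 fold change was -0.01, and it was -0.01 over all 15924 tested probe sets. Of the members, 179 (89.5%) lay within 0.25 of 0 on the log2 scale, against 85.7% of all tested probe sets, with 10 above that band and 11 below it. Limma called 2 of the 200 at an adjusted p of 0.05, both lower in the knockout and 0 higher, against 0.32% of all tested probe sets in either direction, 0.151% lower and 0.17% higher. The wild type arrays that chose the members are one side of this test, so nothing is read from the count. At an unadjusted p of 0.05 there were 15 members, against 5.24% of all tested probe sets. All 200 members were tested and none was lost to the filter on low values, which follows from their choice as the brightest.

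The second called member was AT4G27280, on chromosome 4, at rank 64, which has no name in the tables used here. By the knockout arrays it ranked 293, so the choice of members favours a fall here as well. It gave 1161 and 1252 in the wild type pair of arrays and 563 and 629 in the knockout pair, so both knockout arrays were far below both wild type arrays here too. It was 2.00-fold lower in the knockout (log2 fold change -0.999, SE 0.13, 95% confidence interval -1.29 to -0.71, limma adjusted p = 0.0104). The call was lost when knockout replicate 1 was left out (limma adjusted p = 0.0775) and when dim probe sets were not filtered out (limma adjusted p = 0.194).

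Outside the test, both knockout arrays were above both wild type arrays for 28 members and below for 39, and 133 members overlapped. The shares over all tested probe sets were 15% above and 16.9% below. These counts are given as a description. When the top 200 were taken by the knockout arrays in place of the wild type arrays, the split turned, with 44 above and 25 below, and the median log2 fold change was 0.03. Named members were above in 15 cases and below in 10 (median 0.04), and members with only a locus number were above in 13 and below in 29 (median -0.02). Among the next 200 probe sets by the same ranking, the counts were 35 above and 47 below, and 1 was called, higher in the knockout.

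**Figure D4:**
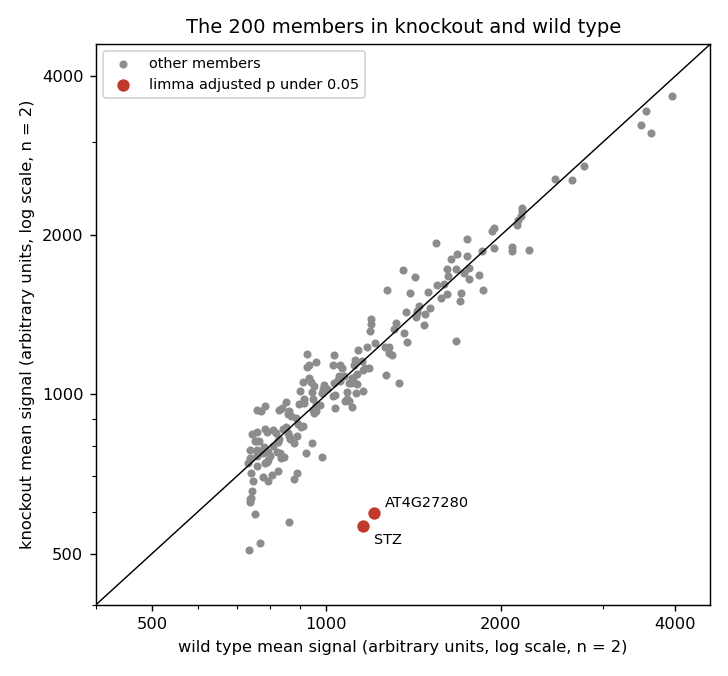
Mean knockout signal (y axis) against mean wild type signal (x axis) of the 200 members, both in arbitrary units on log scales and each a mean of 2 arrays, with the line of equal signal. STZ and AT4G27280, in red, have wild type means of 1156 and 1207 and knockout means of 563 and 596, and most other members lie along the line.

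The members varied less from array to array than dimmer transcripts did. The median SD of log2(signal + 16) over the 4 arrays was 0.116 (quartiles 0.0797 to 0.158), against 0.128 for ranks 201 to 400 and 0.145 for all tested probe sets. In 133 members (66.5%) the highest array was at most 1.25 times the lowest, which held for 57.5% of the next 200 and for 36.4% of all tested probe sets. The range went over 1.5-fold in 8 members (4%) and over 2-fold in 2, STZ and AT4G27280, while 24.2% of all tested probe sets went over 1.5-fold. The median SD was larger in each lower band of the ranking, at 0.133 for ranks 401 to 800, 0.138 for 801 to 1600 and 0.140 for 1601 to 3200. The quartiles did not rise at every step: they were 0.0986 and 0.185 for ranks 201 to 400 and 0.0903 and 0.183 for 401 to 800. These are descriptions with no test, and all of them come from the same 4 arrays.

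**Figure D5:**
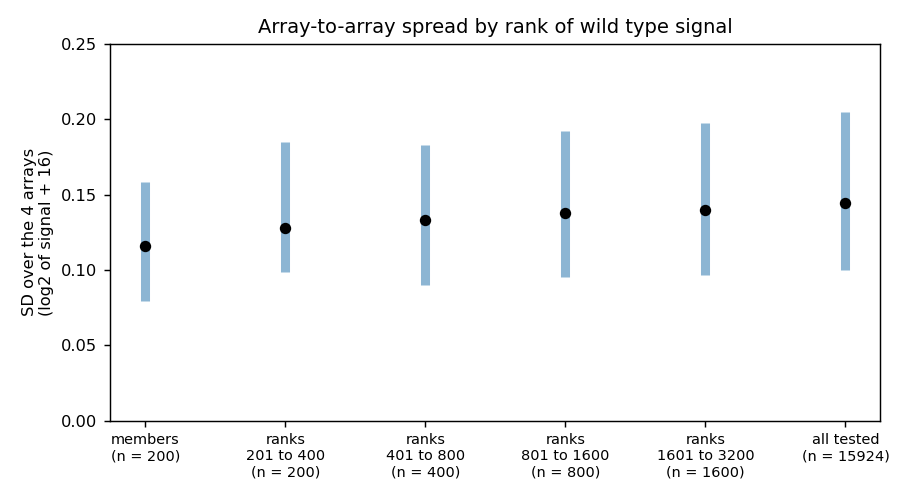
SD of log2(signal + 16) over the 4 arrays (y axis) for the members, for 4 bands of lower rank and for all tested probe sets, with the median as a black point and the quartiles as a blue bar. The median rises from 0.116 in the members to 0.145 over all tested probe sets, while the quartile ranges overlap.

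The 6 steadiest members had only locus numbers. AT3G11510 gave 773 and 779 in the wild type pair of arrays and 791 and 771 in the knockout pair, an SD of 0.0165. AT3G52730 gave 895.5 and 878 for wild type and 896 and 909 for the knockout, and AT3G02560 gave 762.5 and 754 for wild type and 778.5 and 749 for the knockout. In these 3 no array stood more than a few percent from the others. AT5G38980 (1855 and 1862 for wild type and 1821 and 1911 for the knockout), AT1G25275 (1424 and 1460.0 for wild type and 1500.0 and 1444 for the knockout) and AT4G37830 (1470.0 and 1399.9 for wild type and 1423 and 1459 for the knockout) were brighter and had SDs of 0.0283 to 0.0321. Among the named members LCR69 and AT1G53210 were the steadiest, with SDs of 0.0331 and 0.0454.

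The least steady members after STZ and AT4G27280 were also without names. AT3G57450 gave 884 and 841 in the wild type pair of arrays and 679 and 468 in the knockout pair, with both knockout arrays below wild type but far from each other (log2 fold change -0.60, limma adjusted p = 0.378). AT3G16670 gave 857 and 677 for wild type and 460.4 and 587 for the knockout (log2 fold change -0.54), and AT4G39675 gave 721 and 749.8 for wild type and 449.7 and 564 for the knockout (log2 fold change -0.53). In both the knockout arrays were below, and neither passed the test (limma adjusted p = 0.463 and 0.335). AT2G25520 gave 962 and 687 for wild type and 595 and 839 for the knockout, where 1 array of each group was high and the other low, and its log2 fold change changed sign with 1 array left out (-0.44 to 0.04).

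Other members had groups apart with smaller log2 fold changes than STZ and AT4G27280. AT5G19120 gave 972 and 879 in the wild type pair of arrays and 1164 and 1217 in the knockout pair, the largest log2 fold change above 0 of all 200 members (0.36, limma adjusted p = 0.719). AT2G46600 gave 1546 and 1801 for wild type and 1292 and 1234 for the knockout (log2 fold change -0.40), and AT3G03270 gave 1358 and 1311 for wild type and 1054 and 1046 for the knockout (log2 fold change -0.34), both with the knockout below. None of the 3 passed the test, and they are named because of their values.

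Over the members, whether arrays of a group were more alike than arrays of different groups depended on the measure. The median absolute log2 difference of the members was 0.139 within wild type and 0.121 within the knockout. Across groups it was lowest for wild type replicate 2 and knockout replicate 1, at 0.108, and for wild type replicate 1 and knockout replicate 2, at 0.118, and it was highest between the replicates numbered 1, at 0.154. The SD of the log2 difference, which weighs the members that differ most, was lowest within wild type, at 0.169, and was 0.203 within the knockout. Across groups it was 0.201 for wild type replicate 1 and knockout replicate 2 and 0.218 to 0.2496 for the other 3 pairs. The members were chosen on the 2 wild type arrays, so nothing is read from this order. Over all tested probe sets, wild type replicate 1 and knockout replicate 2 were the closest pair by both measures, at 0.131 and 0.229. Within wild type these values were 0.167 and 0.273, and within the knockout 0.153 and 0.242. Wild type replicate 1 was the highest array for 72 members and knockout replicate 1 for 57, while wild type replicate 2 and knockout replicate 2 were the lowest for 55 and 60. The median signal of the members was 1027, 1018.5, 1033 and 1041 in wild type replicates 1 and 2 and knockout replicates 1 and 2. In the same order the ratio of 3' to 5' signal of the GAPDH control, a sign of RNA integrity and labelling, was 1.13, 1.64, 1.64 and 1.16, so wild type replicate 1 and knockout replicate 2 had like ratios and so had the other 2 arrays. The same ratio of the older actin control was 9.42, 7.24, 5.01 and 4.85, lower on both knockout arrays, while that of its newer set was 1.83, 2.51, 2.49 and 1.90. For ubiquitin it was 2.34, 2.36, 2.19 and 2.56, which followed neither order. The part of these ratios in the differences between arrays and between groups, those of STZ and of the photosynthesis members included, was not tested.

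Most members were kept when the probe sets were ranked on other sets of arrays. Ranking by wild type replicate 1 alone kept 189 of the 200, by wild type replicate 2 alone 186, and by all 4 arrays 187. These rankings reuse the values that chose the members, so much of that overlap was fixed in advance. The lists of the 2 wild type arrays shared 175 (87.5% of each). Ranking by the knockout arrays kept 180 (90% of each list), with 20 leaving and 20 entering. STZ went from rank 72 to 319 and AT4G27280 from rank 64 to 293, and TET8, BRH1 and THIC left as well, the last by a shift from rank 200 to 202. AT3G15450, at 689 and 706.5 for wild type and 1301.5 and 1237 for the knockout, entered at rank 58 from rank 228, and CaS, the calcium-sensing protein of the thylakoid, entered at rank 153 from 212. All 13 photosynthesis and pigment members were also in the list ranked by the knockout arrays.

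The border of the list was a smooth one. Just inside stood AT3G07110, AT4G39675 and THIC, with wild type means of 736.6, 735.6 and 733.2. Just outside stood AT3G53740, AT1G51650 and AT5G14030, with means of 732.7, 730.9 and 730.5. AT3G53740 gave 664 and 801 for wild type and 979.6 and 616 for the knockout, so a difference of this size in the mean is far within the spread of the arrays.

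The median gene length of the members was below that of all tested genes with 1 symbol. Of the 200, 198 matched an entry of the RefSeq annotation of assembly TAIR10.1, and AT1G32920 and AT3G57450 had none. These 198 were protein-coding genes with a median length of 1735 bp (quartiles 1322 to 2279) from start to end of the gene, against 2296 bp (quartiles 1669 to 3224) for the 8627 tested nuclear probe sets with 1 gene symbol and an entry, members included, and the difference was not tested. They lay on all 5 chromosomes, with 46, 34, 51, 32 and 35 on chromosomes 1 to 5. These are 23.2%, 17.2%, 25.8%, 16.2% and 17.7% of the 198, against 26.1%, 15.0%, 20.3%, 14.8% and 23.9% of the 8627. In 4 cases 2 members were next to each other among protein-coding genes: AT2G25510 with AT2G25520, AT2G27710 with AT2G27720, AT3G02080 with MPPBETA, and JAL33 with JAL34. No background was computed for the number of such pairs.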

How the data were processed

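RNA of 4 samples was read on Affymetrix ATH1 arrays. For each array the authors deposited linear intensity values by probe set, made and scaled with MAS5, per the submitters' processing notes, which name no version or settings. Precision is limited by the number of arrays, 2 per group.

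The 64 control probe sets were left out. Probe sets under the 30th percentile of the mean signal, a floor of 19.5, were not tested. The remaining 15924 were compared on log2(signal + 16) with limma 3.58.1 in R 4.3.3 (lmFit, eBayes with a trend, two-sided, prior degrees of freedom 8.82), with Benjamini-Hochberg adjustment over all 15924. Fold changes are on that scale. With 2 arrays on each side, the smallest p of an exact permutation test is 0.333. The fit was tested on simulated data with noise drawn independently for each array. It recovered 28% of changes of 0.5 on the log2 scale and 94% of changes of 1, and 8 of 169 calls were false. In the measured arrays the replicate differences of the 2 groups correlated at -0.301 over all tested probe sets. These simulated shares therefore need not hold for the measured arrays. Most members had smaller log2 fold changes than 0.5, so not passing the test does not show that a member was unchanged.

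Gene symbols came from the platform's annotation, updated against RefSeq assembly TAIR10.1. Of 22746 probe sets, 13513 had 1 symbol, 503 several and 8730 were not listed. Plastid and mitochondrial genes (92 probe sets with 1 symbol) were left out. Function classes were set by rules on symbols and synonyms, because no gene descriptions were at hand for the planned keyword rule. They were written after the members' names were known. Members and lists were chosen with earlier results of these data known. The planned search of promoters for motifs was not run.

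Named genes are the 20 highest-ranked members, every member past an adjusted p of 0.05, the 6 largest and 6 smallest SDs, up to 4 of the brightest members per class, and the 3 probe sets on each side of the border. Other members are named to account for the classes. Alternatives were other scalings, pseudocounts, filters and rankings, the replicate block and leaving out each array. Both groups use replicate numbers 1 and 2, and no label ties them to a batch. The replicate differences of the 2 groups correlated at -0.374 over the members, so the numbers were not taken to pair the arrays.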

Additional observations from a re-analysis of the deposited data

How the results depend on the processing

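The count of called members was 2 in most settings. It was 2 with the replicate number as a block (replicate block), where the calls over all tested probe sets went from 51 to 89. It was 1 to 2 with 1 array left out, as STZ was lost without knockout replicate 2 and AT4G27280 without knockout replicate 1; over all tested probe sets the calls then ran from 20 without knockout replicate 2 and 23 without knockout replicate 1 to 87 without wild type replicate 1. With no filter on dim probe sets limma called 0 members and 0 of 22746 probe sets. With the replicate numbers crossed, an alternative chosen after seeing the data, it called 5 of the members and 195 in all; AT3G57450, AT3G16670 and AT4G39675 were added, with limma adjusted p of 0.0311, 0.0159 and 0.0325. The cause was not tested.

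The median log2 fold change of the members was 0.0245 with median centring and ran from -0.0477 to 0.0192 with 1 array left out, so its sign is not settled. The median SD of the members stayed between 0.101 and 0.123 over 8 alternatives. STZ stayed between -1.06 and -0.96 and AT4G27280 between -1.08 and -0.92 over 13 alternatives each. AT2G25520 ran from -0.442 to 0.0436 with 1 array left out and changed sign without wild type replicate 1 and without knockout replicate 1. In the top 100 in place of the top 200, 0% of members were pigment genes and 0% cytoskeleton genes; in the top 400, 9.25% were named genes outside the classes. The class rules were written with the names of the top 200 known, and the cause of these shifts was not tested. The members' wild type means were at least 733.2 against a filter floor of 19.5, which follows from their choice as the brightest. That floor is a cutoff and not a measured background. The number of arrays, 2 per group, limits the precision.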
